A study of Gossypium hirsutum with 6 samples.

Results

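The D-genome gene models that were listed at 0 in every mRNA-seq library of allotetraploid cotton are described here by place in the gene order. A model was taken as a D-genome model where its identifier starts with Gorai, and it is called silent where its FPKM value (fragments per kilobase of model, scaled to the mapped fragments of a library) was 0 in all 6 libraries. Of 37223 D-genome models, 8852 (23.8%) were silent and 28371 were above 0 in at least 1 library. The table as a whole held 77357 models of both genomes, of which 22819 (29.5%) were at 0 in all 6 libraries. The values of all 6 libraries chose the members, so their number and share are a description and carry no test.

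The libraries came from *Gossypium hirsutum* acc. TM-1 grown in a greenhouse, with no treatment and no transgene. Young leaves, ovules at 0 DPA (days post anthesis) and 14 DPA fibers were each represented by 2 libraries. The labels number these as replicates, and the study's methods call them biological. Leaves and ovules are organs of many cell types, whereas a fiber is a long outgrowth of a single ovule epidermal cell. In such bulk RNA, fewer cells of a type and less RNA per cell cannot be told apart. The table does not pair identifiers with gene names, and 0 of its 77357 identifiers matched the RefSeq genes of the species, so tissue markers could not be looked up and models are given by identifier.

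Allotetraploid cotton carries an A genome and a D genome that were brought together by hybridization, and most genes therefore exist as an A copy and a D copy, called homoeologs. The D genome resembles that of *G. raimondii*, the diploid species whose gene models bear the Gorai prefix. Plants use many genes in a few organs, stages or conditions only, pollen and root being well-known cases, and neither was sampled here. Along plant chromosomes, related genes often lie side by side as tandem copies, and gene-rich arms alternate with repeat-rich, heterochromatic regions around the centromere. Place in the gene order was read from the identifier, which holds a chromosome number from 1 to 13 and an order number. All 37223 D-genome identifiers carried such a chromosome number. On each of the 13 chromosomes the order numbers started at 100 and ran on in steps of 100 with 0 skips, so every neighbour in the gene order was present in the table. Positions in bases are not used here, and a step in the gene order can stand for a short or a long distance. Chromosomes, neighbours and runs are those of the *G. raimondii* gene models. Whether these models lie in the same order in the D genome of TM-1 was not tested, and its chromosomes may be numbered otherwise.

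Sequencing depth and the values of a library bear on how many models are listed at 0. Summed FPKM over all models ranged from 927473 to 1014580. The most frequent ratio between low values gave depths of 0.705 to 1 relative to fiber replicate 1, the deepest library. What 1 read is worth depends on the length of a model, which the table does not give, so no lower limit of detection can be set for a model that was 0 throughout. A value of 0 means that the model was listed at 0, not that it had no transcript. The study kept uniquely mapped reads only, so a model nearly identical to another can lose its reads. Its part in the silent set was not tested.

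In a given library, more D-genome models were at 0 than in all libraries jointly. Leaf replicates 1 and 2 listed 13415 and 13110 models at 0, ovule replicates 12705 and 13123, and fiber replicates 13901 and 14234. The fiber libraries had the most models at 0 although they were the deepest. The mean per library was 13262.5 ± 216 for leaf, 12914 ± 296 for ovule and 14067.5 ± 235 for fiber (SD, n = 2). Both fiber libraries lay above all libraries of the other tissues, whereas ovule replicate 2 lay between the leaf libraries. With 2 libraries a tissue, the smallest two-sided p of an exact permutation test is 0.333, so no test is given.

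Replicates mostly listed the same models at 0. Of models at 0 in either library of a tissue, 85.7% were at 0 in both in leaf, 88.0% in ovule and 85.9% in fiber. The silent models are at 0 in both by the rule and are counted here. Part of this agreement is therefore fixed by the choice of members. Both leaf libraries listed 12241 models at 0, both ovule libraries 12089 and both fiber libraries 13004, and the silent set made up 72.3%, 73.2% and 68.1% of these. The remaining 3389, 3237 and 4152 models were above 0 in another tissue.

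At the edge of the silent set, 1323 models were above 0 in exactly 1 library, against 2549 in exactly 2 and 1303 in exactly 3. Of those in exactly 2 libraries, 2272 (89.1%) were above 0 in both libraries of 1 tissue, with 938 in leaf, 677 in ovule and 657 in fiber. By level the edge was broad, since 3806 models that were not silent stayed under 0.5 FPKM in every library. Models above 0 in exactly 1 library had a median of 0.170 FPKM there, and 1240 of them (93.7%) were under 1 FPKM. Each library kept between 151 (ovule replicate 2) and 285 models (leaf replicate 2) out of the silent set on its own.

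Some models lay just outside the rule by values that are 0 for all practical purposes. Gorai.011G006800 had its highest value, 5.7e-37 FPKM, in leaf replicate 1 and was above 0 in all 6 libraries. Gorai.005G222700 reached 1.46e-36 FPKM in leaf replicate 2. A limit of 0.01 FPKM in every library in place of an exact 0 would have added 3 models, and a limit of 0.1 FPKM 624 models. At the other extreme, Gorai.002G177200 was listed at 1601 FPKM in ovule replicate 1 and at 0 in the other 5 libraries. Gorai.006G138900 was at 26.8 FPKM in fiber replicate 1 alone. These last models stood far from the silent set by level, yet their own replicates listed them at 0.

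The silent share differed between chromosomes. It was highest on chromosome 11, where 846 of 2963 models (28.6%) were silent, and lowest on chromosome 8, with 580 of 2990 (19.4%). The Wilson 95% intervals of these shares, 27.0% to 30.2% and 18.0% to 20.9%, cover counting error only and treat models as independent, which neighbours are not. Chromosomes 2 (26.7%) and 10 (26.0%) followed chromosome 11, and the other 9 chromosomes lay between 22.0% (chromosome 9) and 24.8% (chromosome 13). The same extremes appeared in each library taken alone. Silent models were 62.2% (fiber replicate 2) to 69.7% (ovule replicate 1) of a library's models at 0. The single libraries are therefore no separate check of this order. Models at 0 made up between 39.7% (ovule replicate 1) and 44.6% (fiber replicate 2) of chromosome 11, and between 29.7% and 33.4% of chromosome 8. In all 6 libraries chromosome 11 had the highest share and chromosome 8 the lowest.

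Within chromosomes the silent share changed along the gene order, in a direction that differed from chromosome to chromosome. Each chromosome was divided into 20 bins with equal numbers of models, 260 bins in all with 93 to 229 models each. The share of silent models in a bin ranged from 10.1% to 53.2%, with a median of 22.9%. From bins 1 to 10 to bins 11 to 20, the share became higher on 6 chromosomes and lower on 7. The differences were largest on chromosome 9 (13.5% to 30.5%), chromosome 7 (15.1% to 30.5%) and chromosome 11 (21.7% to 35.4%). Lower shares in the later bins were most marked on chromosomes 6 (25.6% to 18.8%), 8 (22.8% to 16%) and 5 (26.7% to 19.9%). On chromosome 9 the share climbed through all 4 blocks of 5 bins, from 12.1% over 15% and 25.9% to 35.1%. Chromosome 11 did the same, from 20.5% over 22.9% and 30.8% to 40%.

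**Figure D1:**
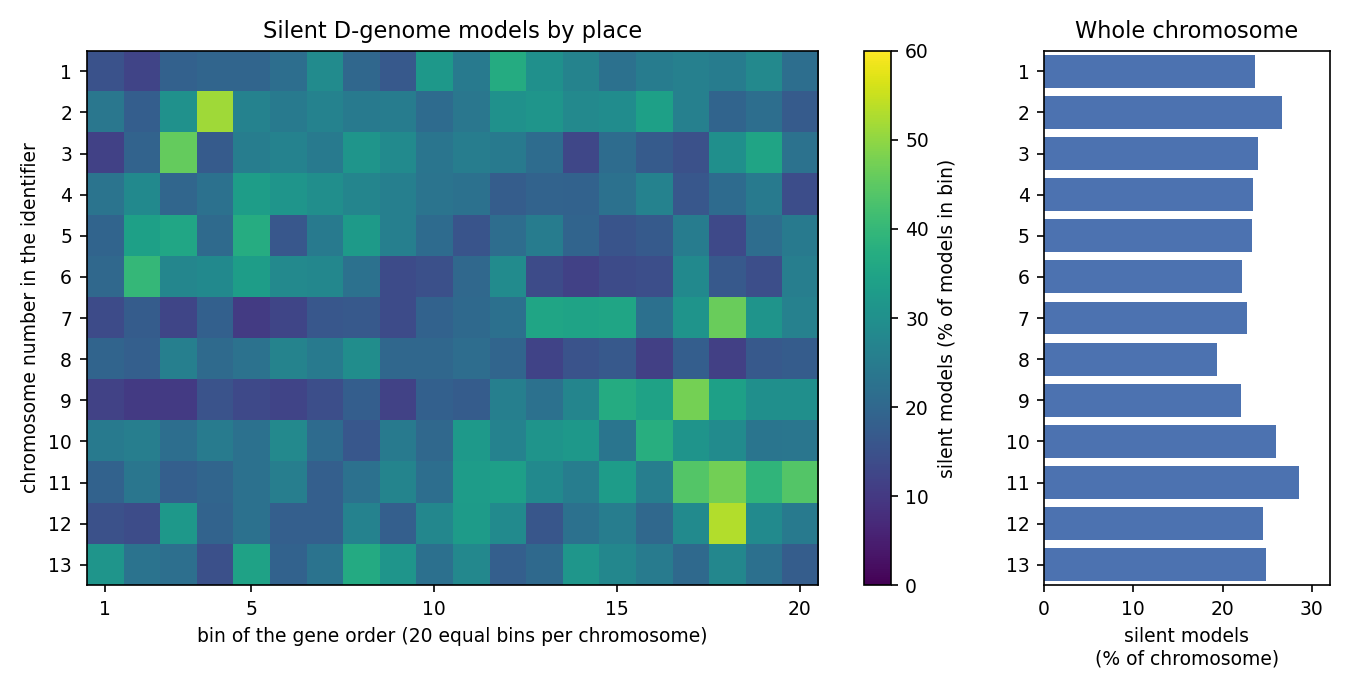
Silent D-genome models by place. Left, each row is a chromosome, each column 1 of 20 equal bins of its gene order, and colour gives the percent of the bin's models that were at 0 in all 6 libraries; right, bars give the percent for the whole chromosome. The bright bins on chromosomes 2, 3 and 12 are isolated, whereas chromosomes 7, 9 and 11 pass from low shares on the left to high shares on the right.

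The middle of the gene order, which need not be the middle of a chromosome in bases, did not stand out. Bins 9 to 12 had a silent share of 22.9% over the 13 chromosomes, against 22.6% in the outermost bins 1, 2, 19 and 20, and this order turned when low values were counted as silent. Summed over chromosomes the share was lowest in bin 1 (18.8%) and highest in bin 18 (28.9%). Bin 17 (28.8%) was next. These sums rest on a few chromosomes, since the share in bin 18 lay between 11.4% and 53.2% on single chromosomes. Of the 260 bins, 8 had a silent share of 40% or more. Bin 18 of chromosome 12 led with 50 of 94 models (53.2%), followed by bin 4 of chromosome 2 with 69 of 134 (51.5%) and bin 17 of chromosome 9 with 108 of 228 (47.4%). Chromosome 11 held 3 of the 8 bins, bins 17, 18 and 20, with 43.9% to 47.3%. The other 2 were bin 18 of chromosome 7 (46.3%) and bin 3 of chromosome 3 (45.7%). A further 31 bins were under 15%.

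Silent models lay next to each other more often than their overall share. Of the models directly following a silent model, 36.0% were silent (3186 of 8846), against 19.9% of those following a model above 0 (5658 of 28364). The share after a silent model was the higher on 13 of 13 chromosomes, from 26.9% against 17.6% on chromosome 8 to 43.4% against 22.6% on chromosome 11. Of models with 0, 1 and 2 silent nearest neighbours, 17.6%, 28.4% and 52.9% were silent. The association was strongest at short range. At 2 places the silent share after a silent model was 30.9%, at 5 places 28.1% and at 10 places 26.0%, against 21.5%, 22.4% and 23.1% after a model above 0. Beyond that a small difference remained, at 26.5% against 23.0% at 50 places, 25.2% against 23.5% at 100 and 25.0% against 23.7% at 200 places.

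Regions with a low silent share and regions with a high one both showed the short-range association. In the 84 bins under 20% silent, the share was 22.3% after a silent model and 14.6% after a model above 0. In the 127 bins from 20% to under 30%, these shares were 34.6% and 21.4%. In the 49 bins of 30% or more they were 49.2% and 28.4%. The bins were sorted here by the silent share itself, so the values show only that the difference was present at each regional level.

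Silent models formed 5666 runs, a run being an unbroken row of silent models in the gene order. A run of 1, that is a silent model between models above 0 or at a chromosome's end, was the most common, and 3926 silent models (44.4%) stood alone in this way. The other 4926 (55.6%) had a silent neighbour. Runs of 2, 3 and 4 numbered 1057, 372 and 146. Runs of 5 or more numbered 165 and held 1112 silent models (12.6%). Their share of the silent models of a chromosome was highest on chromosome 11 (19.9%, 21 runs) and lowest on chromosome 8 (3.79%, 3 runs). Runs of 10 or more numbered 21, held 248 models (2.80%) and were found on 12 of 13 chromosomes. Chromosome 11 held 6 of these 21, and 5 of the 10 runs of 12 or more.

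**Figure D2:**
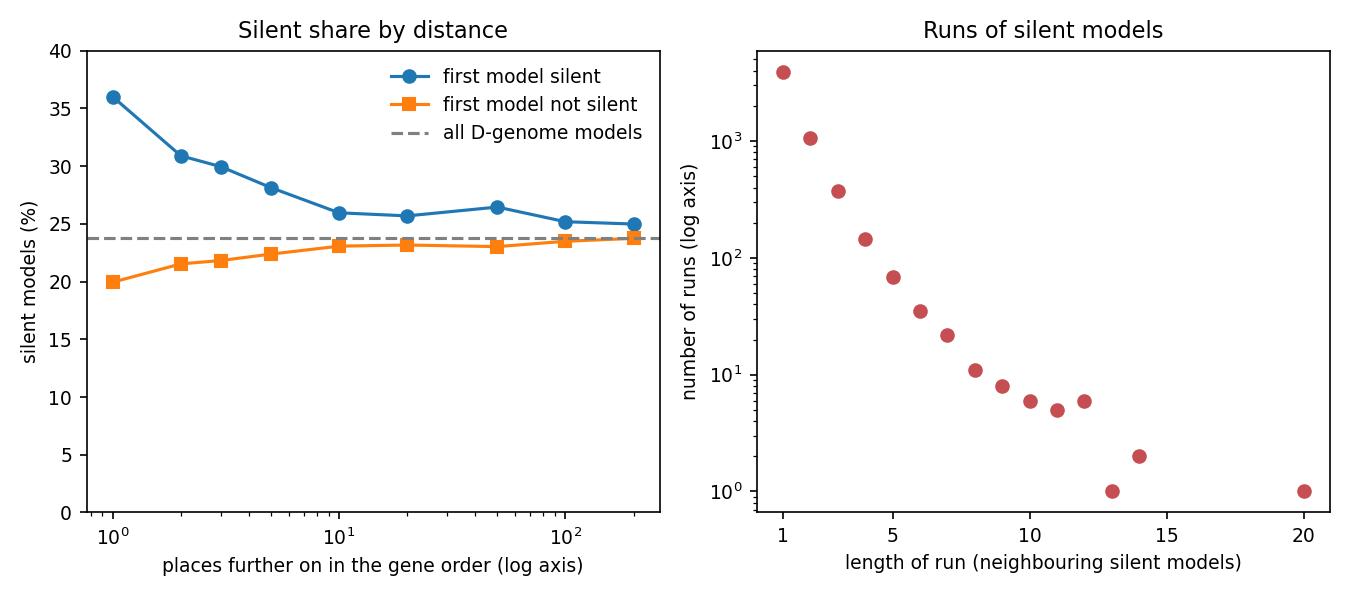
Neighbourhood of silent models. Left, percent of models that were silent at a given number of places (log axis) after a silent model (circles) or after a model above 0 (squares), with the share of all D-genome models as a dashed line; right, number of runs (log axis) by run length. The shares of 36.0% and 19.9% at 1 place draw together to 26.0% and 23.1% at 10 places, and the longest run, of 20 models, stands apart from the next at 14.

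The longest run lay on chromosome 9 and held 20 models, from Gorai.009G255400 to Gorai.009G257300, which are places 2554 to 2573 of the chromosome's 4564. The model just before it, Gorai.009G255300, was well expressed, at 28.4 and 28.9 FPKM (leaf), 82.5 and 82.2 (ovule) and 26.4 and 26.8 (fiber). Expression thus went from over 26 FPKM in each library to 0 within 1 place. The model just after it, Gorai.009G257400, was above 0 in ovule replicate 1 alone, at 0.244 FPKM, and was followed by 3 more silent models. Without ovule replicate 1 the run would extend to 24 models and end at Gorai.009G257700. Of the 20 models within 10 places of the run, 6 were silent.

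The next longest runs, of 14 models each, were on chromosomes 7 and 11. The run on chromosome 7 reached from Gorai.007G269000 to Gorai.007G270300. Before it lay Gorai.007G268900, at 3.10 and 4.14 FPKM (leaf), 28.1 and 27.6 (ovule) and 9.80 and 11.5 (fiber). After it lay Gorai.007G270400, which was at 0 in 4 libraries, at 0.0731 FPKM in ovule replicate 2 and at 0.0561 in fiber replicate 2. With models under 0.1 FPKM in every library counted as silent, this run grew to 20 models and reached Gorai.007G270900. The run on chromosome 11 reached from Gorai.011G148500 to Gorai.011G149800. Gorai.011G148400 before it was at 0.0874 and 0.0423 FPKM in leaf, at 0 in ovule, and at 0.0308 and 0 in fiber. Gorai.011G149900 after it was at 10.4 and 10.6 FPKM (leaf), 2.56 and 2.10 (ovule) and 0.924 and 0.829 (fiber). Each of the 3 runs thus had a clearly expressed model on one side and a barely detected one on the other.

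**Figure D3:**
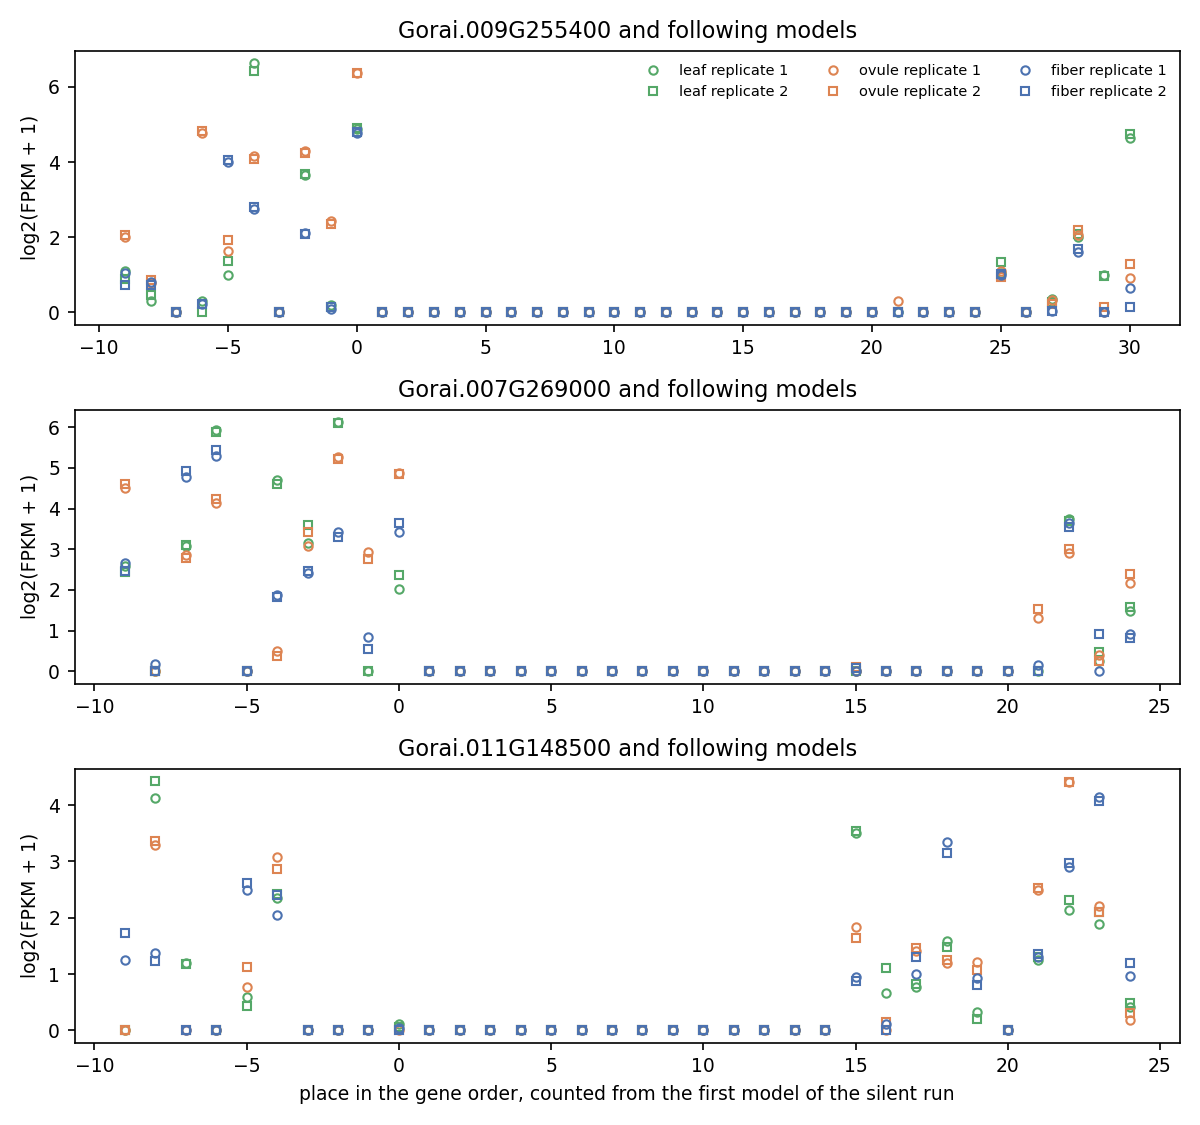
Expression across the 3 longest silent runs. Each panel gives log2(FPKM + 1) of every model from 10 places before to 10 places after a run, by place counted from the run's first model, with colour for tissue and symbol for replicate. All 6 libraries are at 0 across the 20, 14 and 14 models, and most models outside the runs are above 0 in at least 1 library.

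The longest run of each other chromosome was shorter. It held 12 models on chromosome 8 (Gorai.008G038900 to Gorai.008G040000), on chromosome 10 (Gorai.010G132200 to Gorai.010G133300) and on chromosome 12 (Gorai.012G168300 to Gorai.012G169400). It held 11 models on chromosome 1 (Gorai.001G166100 to Gorai.001G167100), on chromosome 4 (Gorai.004G021100 to Gorai.004G022100) and on chromosome 13 (Gorai.013G135500 to Gorai.013G136500). On chromosomes 2, 3 and 6 it held 10 models, starting at Gorai.002G049200, Gorai.003G023600 and Gorai.006G070900. Chromosome 5 had no run over 9, and the first of its runs of that length started at Gorai.005G023900. Without ovule replicate 2 the longest run of chromosome 5 held 14 models. The runs had no common place along the chromosomes. Their middles lay between 7.34% (chromosome 4) and 89.8% (chromosome 12) of the gene order, and those of chromosomes 10, 11 and 13 lay near its middle, at 51.7%, 50.3% and 49.9%.

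Looser clusters were found by sliding a window of 50 models along each chromosome, a description chosen after the values had been seen. The densest window was on chromosome 12, from Gorai.012G164500 to Gorai.012G169400, with 39 of 50 models silent (78.0%). It holds that chromosome's longest run and another of 11 models. The next were on chromosome 11 (38 silent, from Gorai.011G246700) and chromosome 3 (37 silent, from Gorai.003G020000). The least dense maximum was 22 of 50, on chromosome 8. At the opposite end, chromosomes 4, 6, 7 and 9 each had a window with 1 silent model of 50. The 11 models of the densest window that were not silent were mostly not on the edge of detection. Of these, 7 were above 0 in all 6 libraries. Gorai.012G168000, 3 places before the 12-model run, had 36.6 and 30.2 FPKM (leaf), 9.83 and 7.46 (ovule) and 3.82 and 2.96 (fiber). Gorai.012G167900 next to it had 8.25 and 7.73 FPKM (leaf), 8.61 and 7.05 (ovule) and 18.2 and 16.9 (fiber).

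To ask what surrounds silent models, the expressed D-genome models were grouped by how many of their nearest neighbours were silent. These are models that the rule did not select. Of the 28371 models above 0 in any library, 18339 had no silent neighbour, 8746 had 1 and 1286 had 2. The median FPKM of the models above 0 in a library was lower with each further silent neighbour in every library. In leaf it was 2.65 ± 0.00274, 2.43 ± 0.00284 and 1.74 ± 0.0112 FPKM with 0, 1 and 2 silent neighbours (mean ± SD of the library medians, n = 2). In ovule it was 3.8 ± 0.0806, 3.43 ± 0.105 and 2.47 ± 0.0675 FPKM, and in fiber 2.47 ± 0.0358, 2.26 ± 0.0574 and 1.64 ± 0.0813 FPKM. Each of these steps exceeded the replicate spread of its tissue. That spread is between 2 libraries over the same models and does not measure the uncertainty of a difference between sets of models. The median between 2 silent neighbours was 0.646 to 0.679 times that with none, so the 6 libraries differed little in this ratio. Models are not replicates, and no test was run over them.

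Expressed models beside silent ones were also detected in fewer libraries. Of the models not silent, 85.8% ± 0.590 with no silent neighbour and 75.9% ± 2.25 with 2 were above 0 in a leaf library (SD, n = 2). The shares were 87.5% ± 0.995 and 76.1% ± 2.86 in ovule, and 83.8% ± 0.829 and 71.2% ± 1.32 in fiber. Grouped the other way, by the number of libraries in which a model was above 0, the share with a silent neighbour was 47.2% at 1 library, 44.3% at 2, 38.9% at 3, 36.5% at 4, 37.1% at 5 and 32.8% at 6. Among silent models it was 55.6%. Level and detection are not independent measures.

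The lower level was most marked 1 place away and did not appear on every chromosome. Models 1 place from the nearest silent model had a median of 3.19 and 3.38 FPKM in the ovule libraries, those at 2 places 3.61 and 3.69, and those at 10 or more places 4.0 and 4.02. In leaf the medians were 2.36 and 2.32 FPKM at 1 place, 2.55 and 2.60 at 2 places and 2.71 and 2.64 at 10 or more. By chromosome, models with a silent neighbour had the lower median in 64 of 78 pairs of a chromosome and a library. On 8 of 13 chromosomes this held in all 6 libraries, and on 1 in none. Across the 260 bins, the silent share and the log2 median FPKM of expressed models had a weak negative Pearson correlation of -0.25 to -0.22 over the 6 libraries, with Spearman values of -0.16 to -0.13. All bins of a library share its depth, and these correlations are a description. The chromosomes with the steepest rise in silent share did not act alike in this respect. On chromosomes 7 and 9 the expressed models of bins 11 to 20 had a lower median than those of bins 1 to 10 in 6 of 6 libraries, whereas on chromosome 11 this held in 4 of 6. The silent share also rose on chromosomes 1, 10 and 12. There the median of bins 11 to 20 was the higher in 2 libraries on chromosome 1 and in all 6 on chromosomes 10 and 12.

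**Figure D4:**
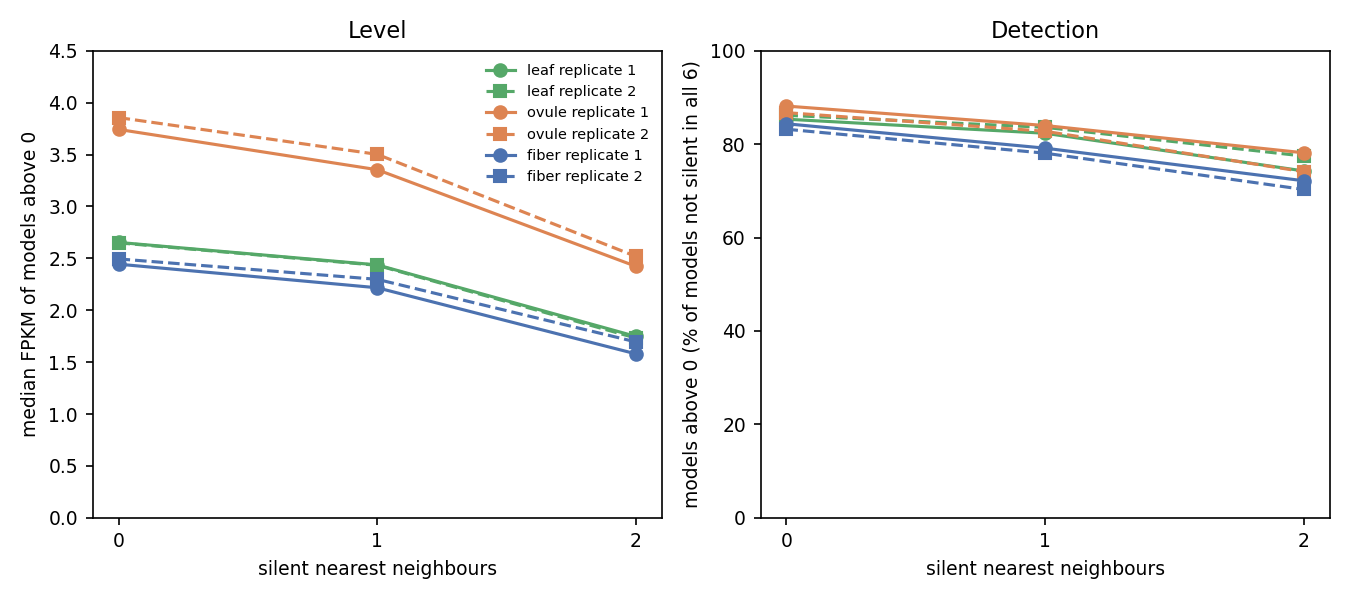
Expressed D-genome models by number of silent nearest neighbours. Left, median FPKM of the models above 0 in each library; right, percent of models not silent in all 6 libraries that were above 0 in each library; colour gives the tissue and line style the replicate. In each library both measures are lower with 2 than with 0 silent neighbours, for example from 3.74 to 2.42 FPKM in ovule replicate 1.

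To ask whether expressed models beside silent ones changed between tissues in a particular direction, all models of both genomes with a mean of at least 0.5 FPKM (42214) were tested with limma on log2(FPKM + 1). Calls required more than a 2-fold difference on that scale, which understates the change of low models, together with an adjusted p below 0.01. Of the 10032 expressed models with a silent neighbour, 7233 (72.1%) passed the minimum, against 78.3% of those with none. Between ovule and leaf (comparison OL), 2244 of the 7233 (31.0%) were higher in the ovule and 1216 (16.8%) lower, where 31.1% and 15.7% of all tested models were. Between fiber and ovule (comparison FO), 1165 (16.1%) were higher in the fiber and 2387 (33.0%) lower, against 16.8% and 33.5% of all tested models (50.3% in either direction). Between fiber and leaf, 1777 (24.6%) were higher and 1893 (26.2%) lower, against 25.6% and 25.3%, or 50.9% in either direction. The shares lay near those of all tested models in each comparison, and between 2 silent neighbours too, where 240 of 805 models were higher and 147 lower in OL, 48.1% called against 46.8% of all tested models. The median OL change was 0.45 on the log2 scale next to a silent model and 0.48 over all tested models. The comparisons share tissues and are not independent of each other. The split between higher and lower calls moved with the scaling. Next to a silent model 64.9% of the OL calls were higher in the values as deposited, 50.5% after quantile normalization and 44.1% after scaling by the median of ratios, and for FO the shares were 32.8%, 50.3% and 45.7%. The corresponding OL shares over all tested models moved alike, from 66.5% to 51.9% and 45%.

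**Figure D5:**
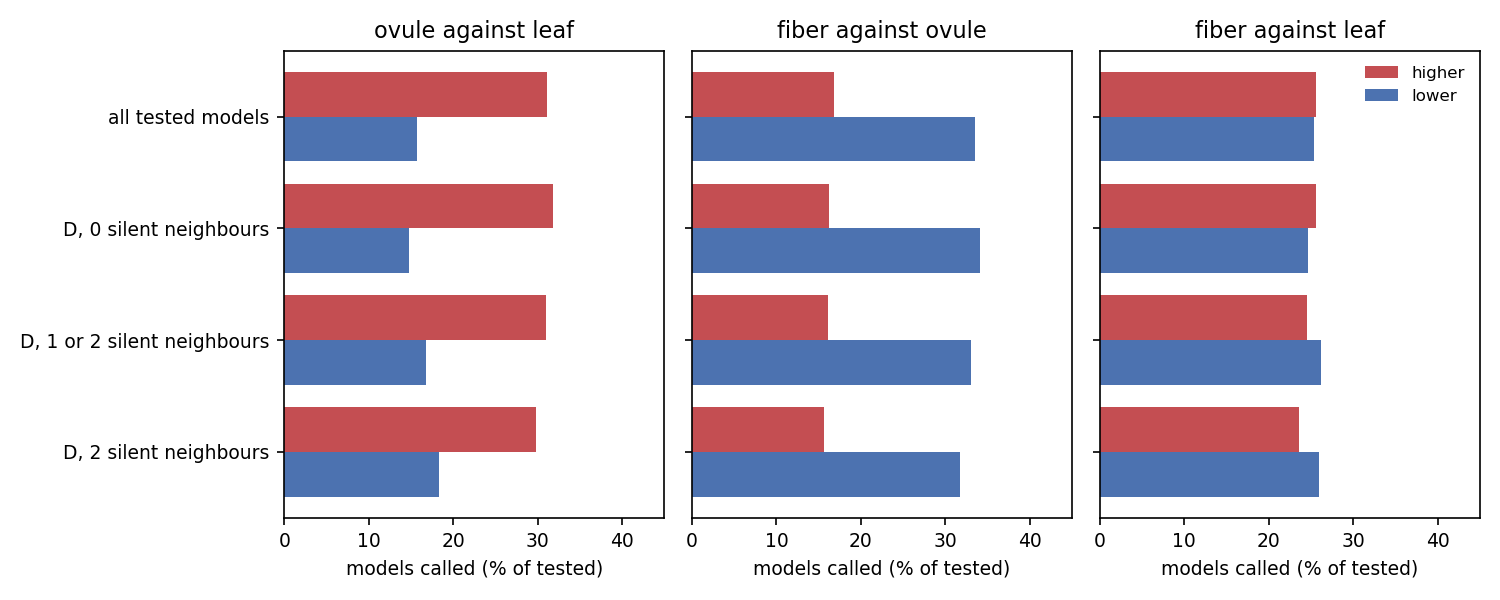
Models called between tissues (limma, adjusted p under 0.01 and over 2-fold), as percent of tested models, higher in red and lower in blue. Rows give all tested models of both genomes and D-genome models by the number of silent nearest neighbours. The bars of models next to a silent one, 31.0% higher and 16.8% lower in the ovule against leaf, lie near those of all tested models in each panel.

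Single models between 2 silent neighbours could nevertheless be expressed far above the median of a library. Gorai.011G128500 was at 14.8 and 8.86 FPKM (leaf), 155 and 126 (ovule) and 8622 and 8664 (fiber). It rose in the fiber against the ovule by 5.94 on the log2 scale (SE 0.24, limma adjusted p 1.18e-05), while the models on either side of it were listed at 0 in all 6 libraries. Gorai.006G095100 was a leaf model, at 837 and 831 FPKM (leaf), 7.32 and 6.94 (ovule) and 1.22 and 0.361 (fiber). Its OL change was -6.68 (SE 0.22, limma adjusted p 2.19e-06). Gorai.013G069000 was at 91.6 and 96.6 FPKM in ovule and at 0.639 or less in the other 4 libraries, an OL change of 6.46 (SE 0.20, limma adjusted p 1.70e-06). With its leaf values of 0.164 and 0 FPKM the size of this change depended on the pseudocount, and it was 9.18 with 0.1 and 11.14 with 0.01 in place of 1. Gorai.004G005900 was at 5.53 and 18.7 FPKM (leaf), 737 and 572 (ovule) and 2.92 and 3.03 (fiber), an FO change of -7.35 (SE 0.52, limma adjusted p 9.67e-05). In each of these models the libraries of the compared tissues did not overlap. They had the largest change in their direction among the called models between 2 silent neighbours, so their size is a consequence of that choice. The lack of overlap adds little, since a call already requires a difference beyond the replicate spread.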

How the data were processed

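Strand-specific mRNA-seq libraries were sequenced single-end for 150 cycles. Per the study's methods, the authors mapped reads with Tophat, kept uniquely mapped reads and estimated abundance over annotated genes with Cufflinks. The submitters' processing notes name CASAVA 1.8 as well; the sources used here give no other version. The deposited FPKM values have 1 column per library, with no pooling and no further scaling described. The methods name the TM-1 genome as reference, whereas the identifiers are Cotton_A and Gorai models; this conflict was not resolved.

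Chromosome and order number were read from the identifier. Neighbours are successive models of 1 chromosome. Depth relative to fiber replicate 1 is the most frequent ratio of values under 1 FPKM, in classes of 0.001 on a natural log scale. Tissue differences were tested with limma 3.58.1 in R 4.3.3 (1 model over 6 libraries, trend and robust moderation, Benjamini-Hochberg adjustment over all tested models), which was tested on simulated data. Positions were analysed in Python 3.11.15. The members and lists were chosen with earlier results of these data known. Named models are the longest silent run of each chromosome, the models flanking the 3 longest, the models at the edges of the rule, and the called models between 2 silent neighbours with the largest change. Replicates are numbered as separate samples in the labels, and the study's methods call them biological. The p-values weigh a difference between tissues against the replicate spread pooled over the tissues and moderated over all tested models.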

Additional observations from a re-analysis of the deposited data

How the results depend on the processing

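Of 465 values recomputed under alternatives, 59 moved by more than a set tolerance and 406 did not; the tolerance was 1.5 times for a count, the Wilson interval for a share, 1 SD between replicates for a median, and the sign and call for the log2 change of a named model. Within this tolerance, sizes still changed, for example from 8852 to 12658 silent models under 0.5 FPKM. Some of the 406 could not have moved. The median of 1 of 2 libraries always lies within 1 SD of their mean. Breaking runs at gaps and changing the bins used the same models. The tally is therefore no measure of how firm the results are. All 56 recomputed log2 changes of the 4 named tissue models kept their sign and call, but that of Gorai.013G069000 was 9.18 and 11.14 with pseudocounts of 0.1 and 0.01 in place of 6.46. The silent set grows by construction when its rule is loosened. With models under 0.1 FPKM in every library counted as silent, the silent share was 25.5% over the D genome, 31.0% on the highest and 20.9% on the lowest chromosome, 24.3% in the middle and 24.6% in the end bins, and 34.4% next to a silent model. Under 0.5 FPKM these values were 34.0%, 39.6%, 29.3%, 32.7%, 33.0% and 40.9%, with 342 runs of 5 or more. With the leaf libraries left out they were 27.6%, 33.1%, 22.8%, 26.6%, 26.4% and 36.6%; without ovule 26.7%, 31.8%, 22.5%, 25.8%, 25.6% and 35.3%; without fiber 26.7%, 31.8%, 22.4%, 25.7%, 25.4% and 35.0%. Chromosome 11 was highest and chromosome 8 lowest in each of these runs. The middle bins were above the end bins as reported (22.9% against 22.6%) but below them under 0.1 and 0.5 FPKM, so no order between them is drawn.

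With any 1 library omitted there were 9003 to 9137 silent models (24.2% to 24.5%), 29.0% to 29.4% on the highest and 19.7% to 20.1% on the lowest chromosome, 23.4% to 23.7% in the middle and 23.1% to 23.4% in the end bins, 33.2% to 33.7% next to a silent model, 167 to 179 runs of 5 or more, and a longest run of 20 to 24. The 24 came without ovule replicate 1. The longest run lay on chromosome 9 in each of these. Under 0.1 FPKM a run on chromosome 7 equalled its 20 models, as did 1 on chromosome 6 (10 as reported) with the leaf libraries left out, and under 0.5 FPKM a run of 25 on chromosome 11 exceeded the 24 on chromosome 9. On chromosome 5 the longest run was 9 as reported and 14 without ovule replicate 2 or without both ovule libraries. Order numbers had no gaps, so breaking runs at gaps changed nothing. Using 10 bins, or bins of the order number, left the shares of the middle and the end bins as they were, since the same models enter by construction; shares of single bins were not recomputed.

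As reported, the leaf, ovule and fiber medians beside silent models were 2.34, 3.28 and 2.19 FPKM, 3.40, 4.75 and 3.21 over models with a mean of at least 0.5 FPKM, and 1.41, 2.02 and 0.976 with values at 0 included. Single libraries gave 2.32 to 2.36 in leaf, 3.19 to 3.38 in ovule and 2.14 to 2.23 in fiber. Within 5 places of a run of 5 or more, 739 models were tested, of which 374 (50.6%) were called in OL (236 higher, 138 lower), 371 (50.2%) in FO (120 higher, 251 lower) and 376 (50.9%) between fiber and leaf (176 higher, 200 lower), against 46.8%, 50.3% and 50.9% of all tested models; fewer models enter by construction. After median-of-ratios scaling, 1298 OL calls were higher (2244 as reported) and 1645 lower (1216), so that their order turned. Leaving out each library gave 3250 to 3471 OL, 3340 to 3562 FO and 3510 to 3685 fiber-leaf calls; the lone library of a tissue then takes its spread from the other groups.

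With the replicate number as a block, OL calls were 3455 in place of 3460, FO calls 3545 in place of 3552 and fiber-leaf calls 3667 in place of 3670. Replicate differences correlated between tissues by -0.06, -0.06 and 0.05, so no shift shared by replicate number was seen. The labels do not say whether equal numbers mark plants in common, and these correlations cannot decide it. The block changed no call of a named model.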

Other observations

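Of the A-genome models, read from the prefix Cotton_A, 13967 of 40134 (34.8%) were silent, beside 23.8% of the D-genome models. The prefixes mark different sets of gene models, so these shares are not like for like. Taken in the order of their identifier numbers, 48.2% of the models after a silent one were silent, against 27.7% after a model above 0, and the longest run held 39 models. Whether these numbers follow the gene order is not given in the sources used here, so the values stand beside those of the D genome without a comparison.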
